A study of Sus scrofa with 2 samples.

Results

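Neutrophils were sought among single cells of pig endometrium by their own transcripts. A cell barcode was counted as a member when the raw counts of S100A8, S100A9, S100A12, CSF3R and CXCR2 summed to at least 3 unique molecular identifiers (UMIs, one per captured transcript) and the barcode held at least 500 UMIs and 200 genes. This rule found 20 members among 10807 kept barcodes of the embryo loss library (EL) and 161 among 8813 kept barcodes of the implantation library (EIS), 181 of 19620 in all. The members made up 0.185% of EL barcodes (exact Clopper-Pearson 95% interval 0.113 to 0.286) and 1.83% of EIS barcodes (1.56 to 2.13), an EL to EIS ratio of 0.101 (0.0603 to 0.162). At a minimum sum of 10, which 5 EL and 13 EIS barcodes reached, the ratio was 0.314 (0.0876 to 0.938). Of these, 3 EL and 3 EIS barcodes lacked markers of another cell type. At the minimum sum of 3, barcodes without markers of another cell type, described below, stood at 0.0740% in EL (0.0320 to 0.146) and 1.01% in EIS (0.812 to 1.24). All intervals in the text cover counting error only.

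Both libraries came from Yorkshire sows aged 3 years and were made with 10x Genomics 3′ chemistry. The EL sow had aborted before and then failed 3 inseminations in a row, with no gestation day given, and the EIS sow was sampled 30 days after a successful insemination. With 1 library from 1 sow in each group, effects of the animal, of its pregnancy status or stage and of the library cannot be told apart, and no difference between EL and EIS has a replicate check. Collagenase and protease digestion of about 200 mg of tissue, filtering and red cell lysis preceded capture, and each of these can change which cells were recovered.

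Neutrophils are short-lived granulocytes that mature in bone marrow under granulocyte colony-stimulating factor, read by the receptor CSF3R. They leave the blood along chemokines such as CXCL8, read by CXCR2. Their cytoplasm is rich in the calcium-binding S100 proteins, and their granule proteins are made mostly before they enter the blood, so the mature cell holds little RNA. In the endometrium they are known for clearing semen and microbes after breeding and for taking part in tissue breakdown and repair.

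The EL library held 43302286 UMIs in 10936 deposited barcodes and the EIS library 36069473 UMIs in 8848. Kept barcodes had a median of 2301 UMIs in EL and 2194 UMIs in EIS. The gene minimum left out 129 EL and 35 EIS barcodes, and none of them met the sum of 3. The libraries shared 27 barcode sequences, of which 0 were members. Transcripts of secreted uterine proteins were abundant in EIS. The antiprotease gene SLPI took 0.0291% of EL UMIs and 15.4% of EIS UMIs, and ACP5, which encodes the iron-binding secretion uteroferrin, took 0.00525% of EL and 4.05% of EIS UMIs.

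The members were of 2 kinds. A member was called mixed when it also held at least 3 summed UMIs of the markers of epithelium, stroma, macrophages, lymphocytes, endothelium or trophoblast, and 12 of 20 EL members and 72 of 161 EIS members were mixed. Epithelial markers reached 3 UMIs in 12 EL and 57 EIS members. Stromal markers did so in 3 EL and 33 EIS members, macrophage markers in 0 EL and 36 EIS members, and trophoblast markers in 0 EL and 18 EIS members. The mixed members were the deep ones. This was fixed in part by the call, since a deep barcode reaches 3 marker UMIs more easily than a shallow one. The 89 EIS members without other markers had a median of 622 UMIs (507 to 8227) and 360 genes, and 61 of them lay under 700 UMIs. The 72 mixed EIS members had a median of 11526.5 UMIs (512 to 65499) and held 92.5% of all UMIs of EIS members. In EL, the 8 members without other markers had a median of 875.5 UMIs (504 to 1688) and the 12 mixed members 4068.5 UMIs (1530 to 13236). A sum over all members therefore reads mainly the mixed ones, and results are given for the members without other markers first.

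**Figure D1:**
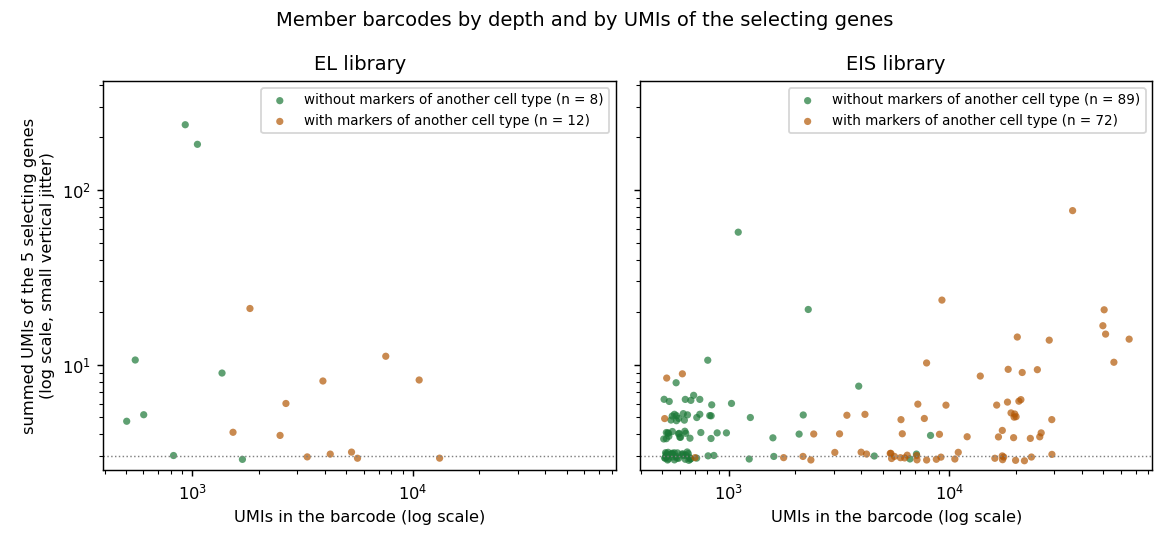
Summed UMIs of the 5 selecting genes (vertical, log scale, with a small jitter) against UMIs per barcode (horizontal, log scale) for each member, with EL on the left and EIS on the right. Green points are members without markers of another cell type and brown points are mixed members, and the dotted line is the minimum of 3. The EIS members without other markers crowd between 500 and 700 UMIs, and 2 EL barcodes stand apart with sums of 184 and 248.

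The genes that chose the members are given as a description. In the 89 EIS members without other markers the selection rested on the receptors: CSF3R had 196 UMIs in 85 barcodes and CXCR2 128 UMIs in 68 barcodes, together 74.8% of their 433 selecting UMIs. The S100 genes were sparse in them. S100A9 had 48 UMIs in 15 barcodes, S100A12 had 38 UMIs in 14 and S100A8 had 23 UMIs in 6, and 73 of these 109 S100 UMIs lay in 2 barcodes. A UMI of both receptors was found in 64 of the 89, and no barcode among them was chosen by S100 genes alone.

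The mixed EIS members were chosen mainly by the S100 genes, which gave all but 21.2% of their 486 selecting UMIs. Of these 72 barcodes, 26 held no UMI of either receptor. Those 26 barcodes had a median of 9674 UMIs and held 1 UMI of SRGN, 1 of TYROBP and 5 of FCGR3A, 3 genes that leukocytes express widely, in 361256 UMIs. They held 3594 UMIs of IGFBP2, a secreted binder of insulin-like growth factors, and 1432 UMIs of AKR1C3, a steroid and prostaglandin reductase. The label neutrophil does not hold for these 26 barcodes. The other 46 mixed members, with 762873 UMIs, held 213 UMIs of SRGN, 165 of TYROBP and 165 of FCGR3A.

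The minimum of 3 cut through a continuous range. In EIS, 523 barcodes had a sum of 1, 115 had 2, 69 had 3, 32 had 4, 47 had 5 to 9 and 13 had 10 or more. Among those without other markers, 31 barcodes lay just outside with a sum of 2 (median 662 UMIs) and 40 just inside with a sum of 3 (median 588.5 UMIs). SDS, which encodes serine dehydratase, had a UMI in 38 of the 40 just inside and 26 of the 31 just outside. FCGR3A, a receptor for the constant part of immunoglobulin G, had one in 40 of 40 just inside and 29 of 31 just outside. SRGN, the proteoglycan serglycin of leukocyte granules, had one in 38 of 40 just inside and 30 of 31 just outside. TREM1, a receptor that amplifies innate signalling, had one in 23 of 40 just inside and 11 of 31 just outside. The barcodes on either side of the minimum thus shared these transcripts, but at lower levels just outside. The 40 barcodes just inside summed to 42082 UMIs, with 549 of SDS, 231 of FCGR3A, 234 of SRGN and 28 of TREM1. The 31 just outside summed to 76477 UMIs, with 250 of SDS, 247 of FCGR3A, 192 of SRGN and 11 of TREM1.

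The 89 EIS members without other markers held leukocyte transcripts at levels far above the rest of the library. Their raw UMIs were summed, scaled to CPM (a gene's counts over the summed counts, times 1e6) and divided by the CPM of the 8652 EIS barcodes that were no members, and a gene was called at a 2-fold ratio when the mean CPM of both sides was at least 100. Of 1348 genes so measured, 496 were higher (36.8%) and 203 lower (15.1%), with a median log2 ratio over all measured genes of 0.35. With totals that left out genes over 1% of a library the split was 479 higher and 405 lower, with a median of -0.12. With TMM factors it was 415 higher and 308 lower, with a median of -0.03. These scalings put every log2 ratio lower by a fixed 0.36 and 0.30, which matters for the genes near the 2-fold limit and is given beside them. The level filter bears on the list counts and medians below. A gene low in the comparison barcodes could pass it only through the members, so its call as higher was fixed.

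Several of the 25 highest ratios among named genes, which all have a symbol, belonged to enzymes, their regulators and a metabolite receptor. SDS had 12977 CPM in these members and 45.9 CPM in other EIS barcodes, 283-fold higher (262 to 305), and was found in 93.3% of them and 7.44% of the others. G0S2, an inhibitor of triglyceride lipase, was 168-fold higher (139 to 203). STEAP4, a metalloreductase, was 94.2-fold higher (79.2 to 112). These enzymes and regulators were spread over most barcodes, since G0S2 had a UMI in 69.7% and STEAP4 in 77.5%. HCAR2, the receptor for niacin and ketone bodies, was 85.9-fold higher (69.5 to 106). DHRS9, a retinol dehydrogenase, was 95.6-fold higher and ACSL4, which activates arachidonic acid, 47.2-fold. ALOX5AP, needed for leukotriene synthesis, was 41.5-fold higher and had a UMI in 61.8% of the barcodes.

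Secreted proteins and surface receptors were also among the 25, and RETN, CNR2 and TREM1 had the highest ratios of the named genes. RETN, the secreted protein resistin, had 338 CPM in these members and 0.719 CPM in other EIS barcodes, 471-fold higher (269 to 832), but came from 16 of the 89 barcodes. CNR2, cannabinoid receptor 2, was 321-fold higher (215 to 478) and TREM1 294-fold higher (208 to 415). TREM1 was present in 53.9% of the barcodes with at most 3 UMIs in one. CXCL8, the chemokine that CXCR2 reads, was 196-fold higher (160 to 240). IL18, a cytokine released by inflammasomes, was 84.4-fold higher (67.9 to 104). TGFA, a ligand of the epidermal growth factor receptor, was 146-fold higher (82.6 to 249) on 20 UMIs. Also among the 25 highest ratios were CD48, a leukocyte adhesion molecule, at 61.0-fold, VSIR, an inhibitory receptor of leukocytes, at 50.2-fold, and SRGN at 42.8-fold (39.1 to 46.8), with 5883 CPM in these members and 137 CPM in the others. The remaining named genes of that range were PIGE-108A11.3 at 119-fold, TMEM154 at 84.1-fold, PHACTR1 at 52.9-fold, SAMSN1 at 47.7-fold and ARHGAP15 at 47.5-fold.

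Features without a gene symbol took part in the same pattern. The feature ENSSSCG00025020802 had 10914 CPM in these members and 50.5 CPM in other EIS barcodes, 216-fold higher, and a UMI in 97.8% of them. ENSSSCG00025034442 was 412-fold higher. Of the 26881 features, 16128 had no symbol, so many neutrophil genes of the lists could not be looked up, among them CXCR1, FPR1, CYBB, NCF1, MPO, CAMP and ITGB2.

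**Figure D2:**
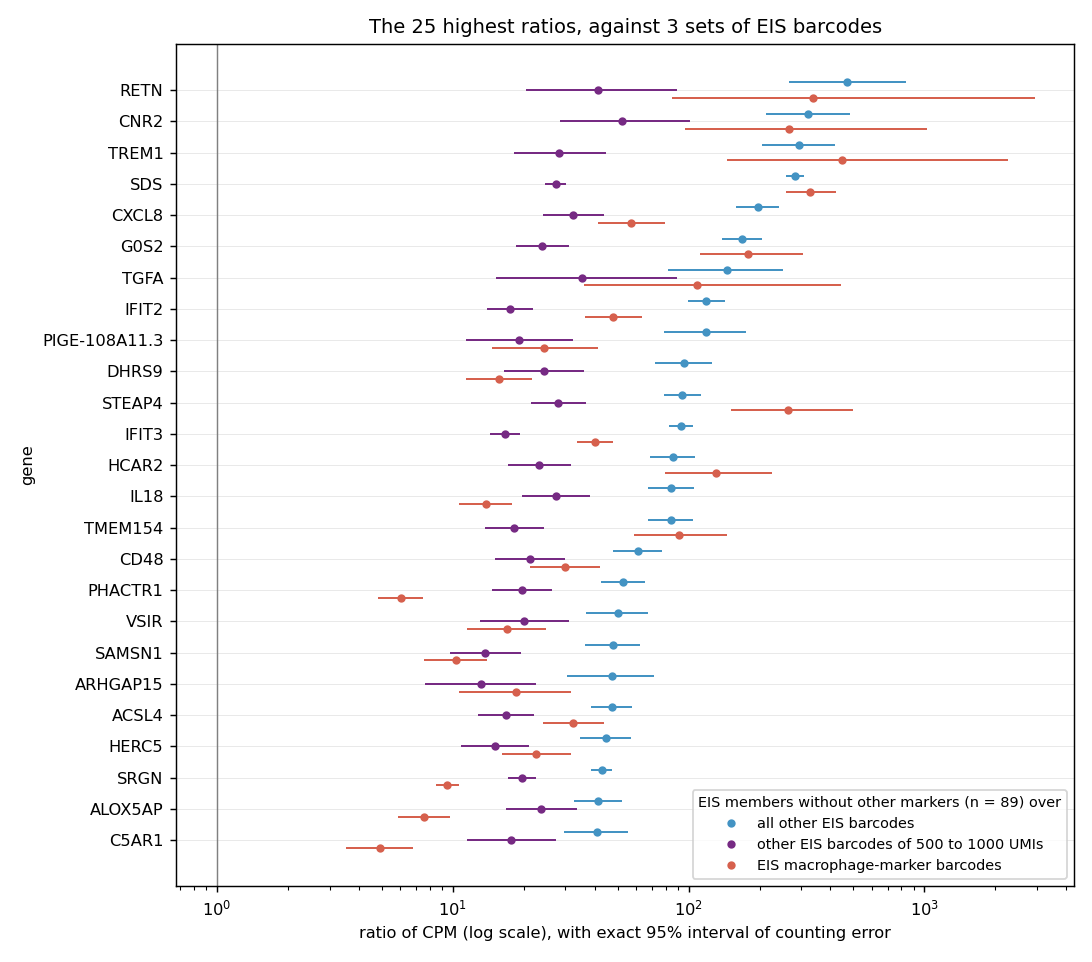
Ratio of CPM (horizontal, log scale) with its exact 95% interval of counting error for the 25 named genes with the highest ratios. The 89 EIS members without other markers are set against all other EIS barcodes, other EIS barcodes of 500 to 1000 UMIs and EIS macrophage-marker barcodes. All 25 lie right of 1 against each of the 3 sets, and RETN, CNR2 and TREM1 head the first.

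The rest of the neutrophil list that the rule did not use was thin in symbols: 14 of 25 genes had a feature and 6 passed the level filter. Of these 6, 5 were higher, with a median log2 ratio of 5.73, beside 36.8% and 0.35 over all genes. Besides TREM1, G0S2 and HCAR2 they were VNN2, a membrane pantetheinase of neutrophils, at 32.8-fold (23.4 to 45.0), and FCGR3A at 26.5-fold (24.2 to 28.9), with 5763 CPM in these members and 218 CPM in other EIS barcodes. BASP1 had a ratio of 1.70 and was not called. In other EIS barcodes TREM1 had 2.30 CPM, G0S2 10.7 CPM, HCAR2 14.5 CPM and VNN2 14.0 CPM. These 4 genes could pass the filter only by being high in the members, so the filter fixed the count and median in part. The other 8 genes lay under the filter. MNDA, CLEC4E and TNFAIP6 had 2 UMIs each in the 89 barcodes, PROK2 had 1, and IL1R2, CD177, AQP9 and MGAM had none.

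Granule genes were near the detection limit. The primary granule genes ELANE, AZU1 and PRTN3, whose products are proteases and related proteins stored in these granules, had 0 UMIs in the 89 barcodes and their 91622 UMIs. LTF, which encodes lactoferrin of the secondary granules, MMP8, neutrophil collagenase, and HP, haptoglobin, also had 0. CHI3L1 had 7 UMIs and PGLYRP1, a peptidoglycan-binding protein, 13. Of the tertiary granules, MMP9, a gelatinase, had 4 UMIs, ADAM8 had 11, MMP25 had 7, QPCT had 7, SLC11A1 had 2 and ARG1 had 0. None of the 14 granule genes with a feature reached the level filter, so no change was called, and a count of 0 allows a level of up to 3 UMIs over these barcodes.

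Receptors and sensors that passed the filter were higher. The filter fixed this for genes low in other EIS barcodes, such as CCR1 at 1.52 CPM and C5AR1 at 13.3 CPM. Of 9 chemoattractant receptors 7 had a feature and 2 were measured: CCR1, a receptor for CC chemokines, was 136-fold higher (76.1 to 234) and C5AR1, the receptor for complement C5a, was 41.0-fold higher. LTB4R, a leukotriene receptor, had 5 UMIs, CXCR4, the receptor that holds neutrophils in bone marrow, had 10 and C3AR1 had 10, all under the filter. RAC2, the small GTPase of the NADPH oxidase, was 12.6-fold higher. CD53, a tetraspanin of leukocytes, was 16.8-fold higher and CD14, a co-receptor for bacterial lipopolysaccharide, 8.46-fold (6.0 to 11.6).

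Inflammatory output was high in part of the barcodes. Of 17 cytokine and chemokine genes 16 had a feature and 6 were measured. Of these, 5 were higher, beside 36.8% of all genes, with a median log2 ratio of 3.24. They were CXCL8, IL1B at 26.6-fold, its antagonist IL1RN at 17.7-fold, CXCL2 at 5.06-fold and CCL4 at 3.31-fold, while CCL5 at 1.54-fold was not called. CXCL8 came from 27.0% of the barcodes, and IL1B from 6 barcodes, 1 of which gave 15 of its 34 UMIs. Of the IL1B UMIs, 33 lay in 5 barcodes of 2177 to 7102 UMIs that held no SDS. Without the 5 members over 2500 UMIs, IL1B had 9 UMIs and fell under the level filter. Then 4 of 5 measured genes of the list were higher (median 2.56), beside 44.5% of all genes. IL6 and IL10 had 0 UMIs, OSM 1 and TNF 8.

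All 7 measured genes of the NF-kB target and feedback list were higher (median log2 3.01, 9 of 12 genes with a feature). They included NFKBIA, the inhibitor that NF-kB induces against itself, at 10.4-fold, BIRC3, an inhibitor of apoptosis, at 15.7-fold, SOD2, mitochondrial superoxide dismutase, at 20.5-fold and TNFAIP3, a ubiquitin-editing brake, at 2.32-fold, which lay under 2-fold with the other totals (log2 0.85) and with TMM (0.92). All 7 measured interferon response genes were higher as well (median log2 2.82, 11 of 22 with a feature). Over all measured genes 36.8% were higher. IFIT3 had 4606 CPM in these members and 49.6 CPM in other EIS barcodes, 92.9-fold higher (83.3 to 103), and IFIT2 was 119-fold higher (100 to 141), both being interferon-induced antiviral proteins. IRF7, a transcription factor of the interferon response, was 31.5-fold higher and MX1, an antiviral GTPase, 5.51-fold. MX2 and CXCL10, which interferon also induces, had 0 UMIs. HERC5, a ligase for the ubiquitin-like ISG15 and outside the list, was 44.7-fold higher.

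Most measured genes of survival and of the cell body were higher as well, beside 36.8% of all 1348 measured genes. BCL2A1 and MCL1, which keep neutrophils alive, were 16.2-fold and 3.28-fold higher, and BCL2 had 0 UMIs. Of 5 measured myeloid transcription factors 3 were higher (median log2 1.76), among them SPI1, the myeloid master factor PU.1, at 37.1-fold and CEBPB at 8.60-fold. KLF2 had a ratio of 1.82 and KLF6 of 1.76. Of 13 measured genes of the actin cytoskeleton and motility list 9 were higher (median log2 2.47). Among them were the kinases FGR at 19.4-fold and LYN at 10.1-fold, the actin regulator CORO1A at 16.2-fold and WAS, which starts actin branching, at 15.5-fold. PFN1 and ARPC3, both called, lay under 2-fold with the other totals (log2 0.78 and 0.79) and with TMM (0.85 and 0.86).

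Energy metabolism was uneven, where over all measured genes 36.8% were higher and 15.1% lower. Of 9 measured glycolysis genes 3 were higher, SLC2A3, a glucose transporter, at 22.0-fold, PGK1 at 5.19-fold and LDHA at 2.60-fold, and the list's median log2 ratio of 0.54 lay close to the 0.35 of all genes. None of 12 measured nuclear genes of oxidative phosphorylation was higher and 2 were lower, NDUFA4 and UQCRQ, with a median of -0.69. That lower count was near the 15.1% of all genes. Without the 5 members over 2500 UMIs, 8 of 11 measured genes of oxidative phosphorylation were lower (median -1.48), and TPI1 of glycolysis was lower too. Over all genes 26.1% were then lower. Of 9 measured immediate early genes, which respond to tissue dissociation as well as to signals, 1 was higher, FOS at 2.40-fold, with a median of 0.40. FOS lay under 2-fold with the other totals (log2 0.91) and with TMM (0.97), while ATP5ME, COX4I1, COX5B and COX7A2 of oxidative phosphorylation passed 2-fold lower with both.

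**Figure D3:**
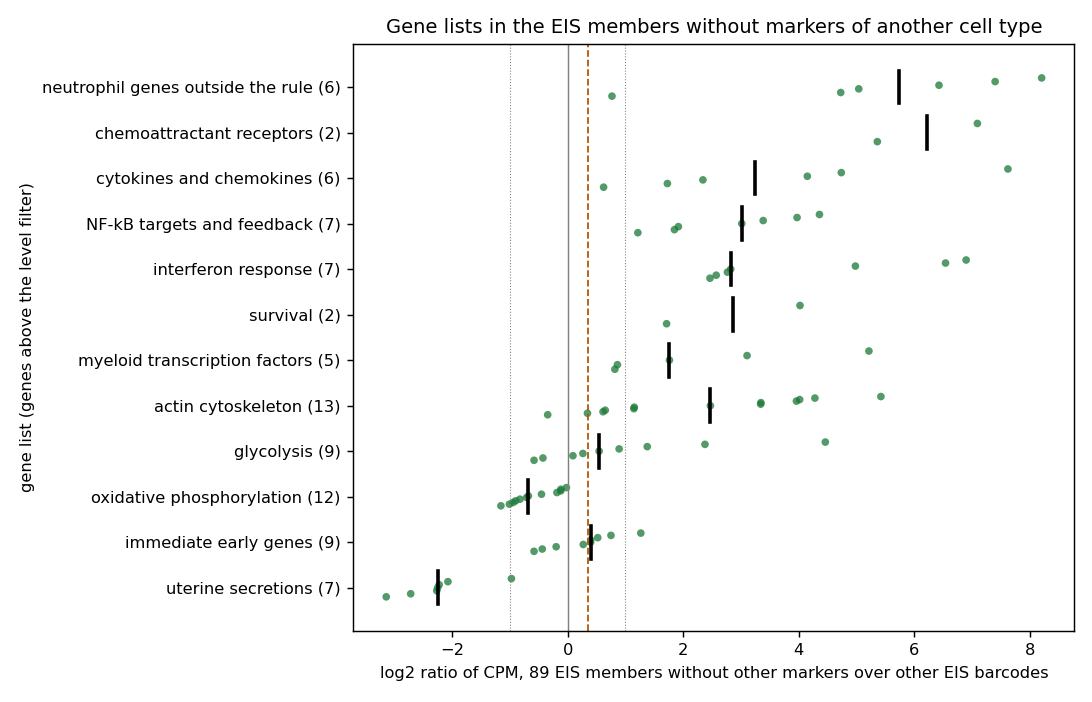
Log2 ratio of CPM in the 89 EIS members without other markers over other EIS barcodes (horizontal) for each gene above the level filter, by list, with the number of genes in brackets. Black bars are list medians, dotted lines the 2-fold limits and the dashed line the median of 0.35 over all 1348 genes. The 2 chemoattractant receptors lie furthest right at a median of 6.22, followed by neutrophil genes outside the rule at 5.73, and oxidative phosphorylation lies left of 0 at -0.69. Genes low in other EIS barcodes could pass the filter only through the members.

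Markers of most other cell types were low in the 89 barcodes, which was fixed in part by leaving out mixed members. The macrophage markers C1QA, LYVE1 and MSR1 had 0 UMIs and C1QB and MRC1 1 each, and 27 of the 29 UMIs of that list were of APOE. The summed lists gave 4 UMIs for lymphocytes, 1 for B and plasma cells, 3 for endothelium, 18 for epithelium, 57 for stroma, 16 for trophoblast, 12 for mast cells, basophils and eosinophils, 17 for ciliated cells, 1 for platelets and 0 for red cells. The list of mast cells, basophils and eosinophils was not lower, at 131 CPM in the 89 and 105 CPM in other EIS barcodes. Ciliated markers were about level, at 186 CPM in the 89 and 195 CPM in other EIS barcodes. Neither list was used to call a member mixed. The uterine secretion genes were present throughout. SLPI had at least 6 UMIs in each of the 89 barcodes, with a median of 17, and stood at 32940 CPM in these members and 158274 CPM in other EIS barcodes. A single barcode gave 1198 of the 3018 SLPI UMIs, and the level without it was 20908 CPM. The share of UMIs from the 8 secretion genes had a median of 4.61% (0.676 to 41.9). The lowest named ratio was of DCN, a stromal proteoglycan, at 27.1-fold lower on 4 UMIs.

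Depth was brought closer in a further comparison. Against 1979 other EIS barcodes of 500 to 1000 UMIs (median 728), 512 of 1433 measured genes were higher (35.7%) and 280 lower (19.5%), with a median log2 ratio of 0.42. SDS was 27.3-fold higher (24.9 to 30.1), CXCL8 32.3-fold, TREM1 28.3-fold, G0S2 23.9-fold and SRGN 19.7-fold. The comparison barcodes were not cleared of those with a selecting sum of 1 or 2. In EIS, without other markers, 56 barcodes had a sum of 1 (median 912.5 UMIs) and 31 a sum of 2 (median 662 UMIs). They held 304 and 250 UMIs of SDS. How far such barcodes or depth lowered the ratios was not tested. Of the lists, neutrophil genes outside the rule had 5 of 6 measured genes higher (median 4.51) and interferon genes 7 of 7 (median 2.75). Oxidative phosphorylation had 0 of 10 genes called in either direction, with a median of 0.07. The members over 2500 UMIs stayed in this comparison, and it was not run without them. A further count, against all other EIS barcodes, left out the 5 members over 2500 UMIs, which held 33.2% of the UMIs. There 597 of 1342 genes were higher (44.5%) and 350 lower (26.1%), and SDS was 419-fold higher. Oxidative phosphorylation then had 8 of 11 genes lower (median -1.48), neutrophil genes outside the rule 6 of 6 higher (median 6.29) and interferon genes 7 of 7 higher (median 3.30).

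Shares of barcodes with a UMI were set on one depth by thinning each barcode to 500 UMIs. SDS was then found in 91.2% of the 89 EIS members without other markers, 13.2% of the 72 mixed members, 1.73% of macrophage-marker, 1.11% of lymphocyte-marker and 1.30% of epithelial-marker barcodes. The epithelial-marker barcodes, which should lack leukocyte transcripts, had a median of 5362 UMIs in EIS before thinning, against 622 UMIs in the 89 members, and 6.68% of them held SDS unthinned. FCGR3A was found in other leukocyte sets too: 93.6% of the 89 members held it, 51.2% of lymphocyte-marker, 30.1% of macrophage-marker and 3.14% of epithelial-marker barcodes. SRGN stood at 91.2% of the 89 members, 35.2% of lymphocyte-marker and 1.90% of epithelial-marker barcodes. TYROBP, a signalling adaptor of myeloid and natural killer receptors, stood at 85.1% of the 89 members and 25% of macrophage-marker barcodes. TREM1 was found in 42.9% of the 89 members, 0.16% of macrophage-marker and 0.07% of epithelial-marker barcodes. CXCL8 was found in 26.3% of the 89 members and 0.32% of epithelial-marker barcodes.

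**Figure D4:**
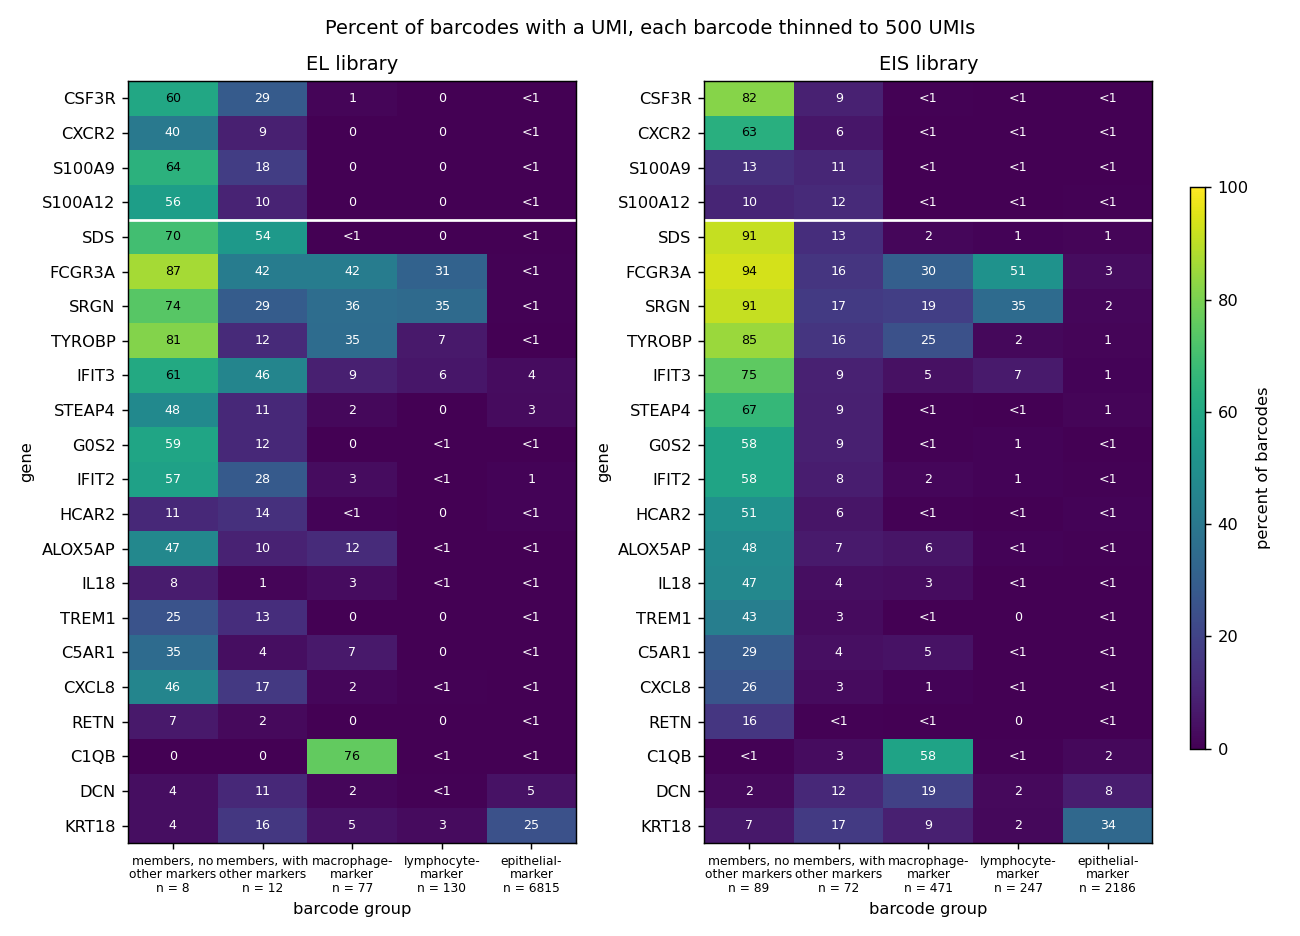
Percent of barcodes with a UMI of each gene after each barcode was thinned to 500 UMIs, for the EL library (left) and the EIS library (right), by barcode group, with members first. Genes above the white line are selecting genes. In EIS the members without other markers reach 91% for SDS and SRGN, while C1QB is highest in the macrophage-marker barcodes and KRT18 in the epithelial-marker ones.

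Macrophages are the nearest relatives of neutrophils in the tissue. The 89 members were set against 471 EIS barcodes with at least 3 UMIs of macrophage markers other than APOE (median 2882 UMIs). Of 1494 measured genes 438 were higher (29.3%) and 265 lower (17.7%), with a median log2 ratio of 0.03. TREM1 was 450-fold higher (147 to 2240) on 3 UMIs in the macrophage-marker barcodes. SDS was 328-fold higher (261 to 417), STEAP4 264-fold (153 to 494), G0S2 180-fold and HCAR2 131-fold (79.9 to 225). The named genes with the highest ratios were completed by RETN, CNR2, TGFA, TMEM154 and SORL1, a sorting receptor, at 59.7-fold. Genes shared by the 2 cell types were closer: TYROBP had 3525 CPM in the members and 775 CPM in the macrophage-marker barcodes, and FCER1G, a chain of immunoglobulin receptors, 1583 CPM in the members and 537 CPM in the macrophage-marker barcodes.

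On the lower side, CCL8, a chemokine, was 67.9-fold lower, EGFL7 32.1-fold, PECAM1, an adhesion molecule, 29.6-fold and DAB2, an endocytic adaptor, 28.4-fold, with C1QB, C1QA, MRC1 and LYVE1 low by the choice of the barcodes. Of 7 measured interferon genes 6 were higher (median log2 2.02) and of 8 measured NF-kB genes 4 were higher (median 1.39). Cytokines were divided, with 4 of 8 higher and 3 lower. All 6 measured neutrophil genes outside the rule were higher (median 5.70). Genes low in the macrophage-marker barcodes, such as TREM1, could pass the filter only through the members. The filter thus fixed this count and median in part. With all 161 members and APOE counted as a marker, 166 of 1246 measured genes were higher (13.3%) and 110 lower (8.83%).

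The 89 barcodes differed among themselves in inflammatory genes. The 24 with CXCL8 (median 636.5 UMIs) held 152 UMIs of it, up to 20 in 1 barcode, and G0S2 had a UMI in 22 of these 24 and HCAR2 in 21. Among the 65 without CXCL8 (median 613 UMIs) G0S2 had a UMI in 40 and HCAR2 in 31. All 34 UMIs of IL1B lay in the barcodes without CXCL8. SDS varied from 0 to 36 UMIs per barcode with a median of 13. The S100 genes divided the barcodes otherwise: 22 of the 26 barcodes with an S100 UMI held SDS and all 26 held TYROBP, while 61 of the 63 without held SDS and 56 held TYROBP. These splits were made on the measured values and are a description.

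Summing all 161 EIS members, as the rule alone would, gave another order of genes. Of 1176 measured genes 154 were higher (13.1%) and 85 lower (7.23%), with a median log2 ratio of 0.11. SDS still led, at 23.9-fold higher (22.2 to 25.7), and the next genes included AKR1C3 at 14.3-fold (13.8 to 15.0), MS4A8B at 14.0-fold, PGLYRP1 at 13.8-fold, AQP8, a water channel, at 13.6-fold, DPP4, a cell-surface peptidase, at 11.6-fold and IGFBP2 at 10.2-fold. AKR1C3 had 10 UMIs in the 89 members without other markers and 3194 in the 72 mixed ones, and IGFBP2 had 19 in the 89 and 12085 in the 72. PGLYRP1 had 700 UMIs in all 161 members. The list of secondary granule genes that holds it had 20 UMIs in the 89 and 741 in the 72. Leaving out the mixed members turned AKR1C3 to a log2 ratio of -0.75 and IGFBP2 to -2.23. Over all 161 members the neutrophil list had 1 of 2 measured genes higher and the NF-kB list 0 of 5, while all 3 measured interferon genes were higher (median 3.09). SDS was present in 17 of the 72 mixed members.

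EL held too few members to describe closely. The 8 without other markers summed to 7515 UMIs and the 12 mixed ones to 62338. The selecting S100 genes were concentrated. Of 447 S100 UMIs in the 8 barcodes, 429 lay in 2 barcodes of 929 and 1055 UMIs, where S100 transcripts made up 26.4% and 17.4% of all UMIs. These 2 barcodes held 0 UMIs of SDS, CXCL8 and TREM1, and 1 of them held all 22 UMIs of LTF. The other 6 barcodes each held 3 to 9 UMIs of SDS. CSF3R had 12 UMIs in the 8 EL barcodes, 1597 CPM in EL and 2139 CPM in the 89 EIS barcodes, and CXCR2 had 9 UMIs, 1198 CPM in EL and 1397 CPM in EIS.

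Comparisons of EL with EIS members hung on the scaling. Among members without other markers, of 1681 measured genes 549 were higher in EL (32.7%), 153 of them with an interval off 1, and 237 lower (14.1%), 43 with an interval off 1, around a median log2 ratio of 0.44. With TMM factors 194 were higher and 868 lower, around a median of -0.80, so no direction is given for the genes as a whole. TMM put every log2 ratio 1.24 lower, and the ratios of single genes below are on summed totals unless TMM is named. Those of members without other markers take in the 2 EL barcodes with 0 UMIs of SDS, CXCL8 and TREM1. Ratios without both were not computed. Over all members, mixed ones included, 530 of 1533 were higher (34.6%) and 198 lower (12.9%), median 0.61, and with TMM factors 112 were higher and 481 lower, median -0.46. The named genes of that comparison included CYP26A1, a retinoic acid hydroxylase, at 184-fold higher in EL, SPDEF, an epithelial transcription factor, at 174-fold and MGP at 47.2-fold, and on the lower side IGFBP2 at 696-fold, SLPI at 432-fold and SPP1, which encodes osteopontin, at least 446-fold. CYP26A1 came from 10.0% of the EL members.

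Several leading transcripts had ratios near 1 between EL and EIS members without other markers on summed totals. TREM1 had 665 CPM in EL and 677 CPM in EIS, an EL to EIS ratio of 0.983 (0.308 to 2.42). CXCL8 had 1464 CPM in EL and 1659 CPM in EIS, a ratio of 0.882 (0.431 to 1.62). TYROBP had 3992 CPM in EL and 3525 CPM in EIS, a ratio of 1.13 (0.752 to 1.65). These intervals span 1 and are wide, and those of TREM1 and CXCL8 include a 2-fold lower level in EL. With each barcode left out in turn the ratio of TREM1, which had 3 of its 5 EL UMIs in 1 barcode, ranged from 0.481 to 1.14. SRGN had 3992 CPM in EL and 5883 CPM in EIS, a ratio of 0.679 (0.453 to 0.980), and IFIT3 had 3460 CPM in EL and 4606 CPM in EIS, a ratio of 0.751 (0.485 to 1.12). NFKBIA had a ratio of 1.52 (1.08 to 2.08). With TMM the log2 ratios were -1.27 for TREM1, -1.42 for CXCL8, -1.06 for TYROBP and -0.64 for NFKBIA, so their nearness to 1 depended on the scaling.

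Other genes were apart by 2-fold or more with an interval off 1. SDS had 3992 CPM in EL and 12977 CPM in EIS, a ratio of 0.308 (0.207 to 0.442). CEBPB, a factor of emergency granulopoiesis, had 665 CPM in EL and 3067 CPM in EIS, a ratio of 0.217 (0.0699 to 0.512), and FOS had a ratio of 0.481 (0.291 to 0.751). HCAR2 had 1 UMI in EL and 114 in EIS, 9.35-fold lower in EL (1.65 to 373), and IL18 1 UMI in EL and 108 in EIS. Among mixed members HCAR2 ran the other way, with 305 CPM in EL and 25.8 CPM in EIS, a ratio of 11.8 (6.26 to 21.8). All 12 EL mixed members held SDS, and in the 17 EIS mixed members with SDS, HCAR2 had 96.9 CPM. Higher in EL were GAPDH, a glycolytic enzyme, at a ratio of 2.1 (1.32 to 3.23), MMP9, with 16 UMIs in 2 EL barcodes and 4 in EIS, and LTF, at least 89.4-fold on 22 UMIs of 1 barcode. With TMM the log2 ratio of GAPDH was -0.17, MMP9 stayed higher at 4.37, and the genes lower in EL lay further down, at -2.94 for SDS and -3.45 for CEBPB. With each barcode left out in turn, SDS ranged from 0.234 to 0.358, CEBPB, with 3 of its 5 EL UMIs in 1 barcode, from 0.0974 to 0.280, and MMP9, with 12 of 16 EL UMIs in 1 barcode, from 13.9 to 64.6. FOS ranged from 0.382 to 0.589 and GAPDH from 1.47 to 2.51, so both calls ended without 1 barcode. The EL barcodes rich in S100 transcripts, which held no SDS, were never left out together. SLPI had 266 CPM in EL and 32940 CPM in EIS, 124-fold lower in EL on 2 UMIs of 1 barcode. That EL to EIS ratio was 0.00808, and 0.0127 without the EIS barcode named above. The secretion genes' share of UMIs had a median of 0.107% in these EL members and 4.61% in these EIS members.

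The mixed members of EL and EIS were unlike each other. SDS was present in 12 of the 12 EL mixed members and in 17 of the 72 EIS mixed members, with 1347 CPM in EL and 130 CPM in EIS. FCGR3A had 850 CPM in EL and 151 CPM in EIS, and CXCL8 had 321 CPM in EL and 12.5 CPM in EIS. The EIS mixed set included the 26 barcodes for which the label neutrophil does not hold. In the 17 EIS mixed members with SDS, SDS had 1010 CPM, FCGR3A 533 CPM and CXCL8 96.9 CPM. Thinned to 500 UMIs, SDS was found in 69.6% of the 8 EL members without other markers, 54.3% of the 12 mixed ones and 0.38% of EL epithelial-marker barcodes, whose median was 4122 UMIs before thinning.

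**Figure D5:**
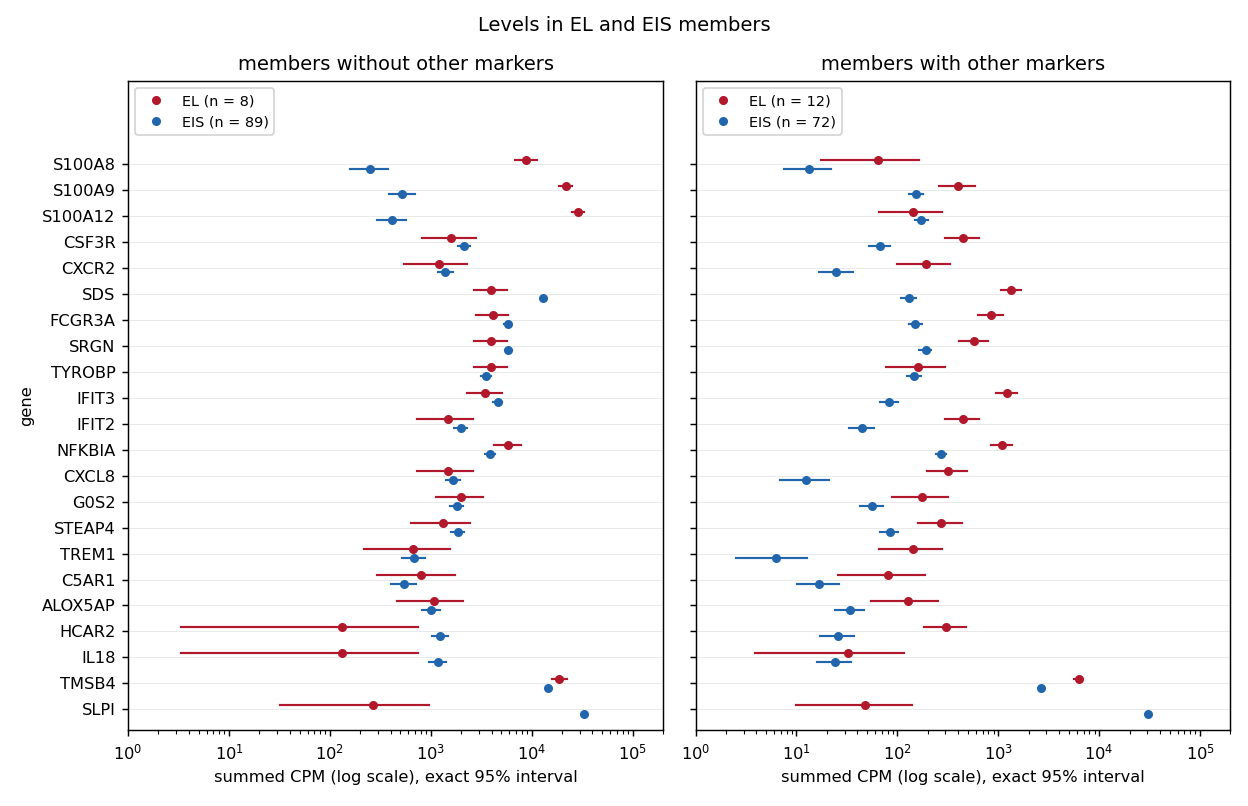
Summed CPM (horizontal, log scale) with its exact 95% interval in EL (red) and EIS (blue) members, for members without other markers (left, 8 EL and 89 EIS) and mixed members (right, 12 EL and 72 EIS). The first 5 genes are the selecting ones. TREM1 and CXCL8 overlap on the left at 665 and 1464 CPM in EL and 677 and 1659 CPM in EIS, and SLPI lies over 100-fold lower in EL on both sides.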

How the data were processed

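Single cells of pig endometrium were measured in 1 EL and 1 EIS library. The authors deposited raw UMI counts for each barcode and gene, without normalization. Cell Ranger 2.1.1 is named per the submitters' processing notes and cellranger 6.1.0 per the file headers. Genome build and annotation: not given in the sources used here. The lowest deposited barcode held 500 UMIs in both libraries. Doublets were scored with Scrublet in scanpy 1.11.5, whose automatic threshold marked 0 EL and 1 EIS barcodes and so did not work. None were removed, and removing the top-ranked 934 EL and 621 EIS barcodes was an alternative. Free RNA was not subtracted.

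UMIs were summed per barcode set and scaled to CPM. Ratios carry exact conditional intervals and shares exact Clopper-Pearson intervals at 95%. Genes with a mean CPM of at least 100 were measured, the 5 selecting genes left out, and a fold of at least 2 was called. A side at 0 was set to a floor of 3 UMIs. No p-value is given, since each group is 1 library. Named genes have a symbol, at least 20 UMIs and a UMI in at least 10% of barcodes of the higher side: the 25 highest and 10 lowest ratios, or 10 and 10, and any gene of the lists. TMM factors came from edgeR 4.0.16 in R 4.3.3. Of 382 genes in 31 lists 242 had a feature. Members, lists and rules were chosen with earlier results of these data known, and genes named for EL against EIS outside the rule were chosen after their values were seen. Scripts were tested on simulated data. Results on some genes are not reported here. Computations used scipy 1.17.1, numpy 2.4.6, pandas 2.3.3 and matplotlib 3.10.9 in Python 3.11.15.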

Additional observations from a re-analysis of the deposited data

Results flagged for a closer look

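DCN, a stromal proteoglycan, went opposite ways in the 2 libraries when all members were set against the other kept barcodes, a difference that was not tested. Its log2 ratio was 1.99 in EL, with 31 UMIs in members, 444 CPM in EL members and 112 CPM in other EL barcodes. In EIS the log2 ratio was -1.57, with 399 CPM in EIS members and 1184 CPM in other EIS barcodes. The EL value came from 4 of 20 members.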

How the results depend on the processing

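Each group was 1 library, so no replicate could be left out, and the members without other markers held 7515 UMIs in EL and 91622 UMIs in EIS, which limits every level of a few UMIs. No paired analysis was possible because the groups are single libraries. A minimum sum of 10 gave an EL to EIS share ratio of 0.314. Counts of genes at 2-fold are given as higher and lower. For EIS members over other EIS barcodes (154 and 85), they were 496 and 203 without mixed members, 479 and 405 with totals without genes over 1% as well, 415 and 308 with TMM as well, 597 and 350 without members over 2500 UMIs as well, 512 and 280 without mixed members and against shallow barcodes, 307 and 150 at a mean CPM of 50, 85 and 43 at 200, 1879 and 2299 with no filter, and 405 and 128 with barcodes of equal weight. The lower count was 144 at a sum of 10 and 134 with totals without genes over 1%. Against macrophage-marker barcodes (166 and 110), they were 488 and 253 without mixed members, 438 and 265 with APOE also left out, then 426 and 350 with the other totals and 403 and 306 with TMM, 318 and 223 at 50 CPM, 89 and 62 at 200 and 1757 and 2657 with no filter. The higher count was 406 with equal weight, and the lower 188 at a sum of 10 and 209 without APOE alone. For EL over EIS members (530 and 198), they were 112 and 481 with TMM, 194 and 868 with TMM and no mixed members, 1254 and 388 at 50 CPM, 212 and 105 at 200 and 4110 and 636 with no filter, and 818 were higher at a sum of 10. Log2 ratios that changed sign were, at a sum of 10 in EIS, FCGR3A -0.91, VNN2 -0.82, CXCL8 -0.10, SPI1 -1.46, LYN -0.45, BCL2A1 -1.78, DHRS9 -0.075 and SAMSN1 -0.996. Without mixed members in EIS they were CCL5 0.62, AKR1C3 -0.75, IGFBP2 -2.23, AQP8 -3.09, S100A2 -2.15 and RBP4 -2.72, and for EL over EIS HCAR2 -3.23, FCGR3A -0.48, IFIT3 -0.41 and CXCL8 -0.18. The median for EL over EIS was -0.25 in neutrophil genes outside the rule without mixed members and 2.56 in cytokines at a sum of 10. A sum of 10 kept 5 EL and 13 EIS barcodes. The 13 EIS barcodes had a median of 28426 UMIs and 379239 UMIs in all. Only 3 of these 13 lacked markers of another cell type, and 2 of the 13 held SDS. The cause of the changes at a sum of 10 was not tested. Settings chosen after the data were seen were equal weight, APOE left out, single barcodes left out, and those without mixed members together with another change.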
